A study of Mus musculus with 6 samples.

Results

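The inhibin, activin, follistatin and AMH axis of cultured mouse granulosa cells (GCs) was followed through 10 genes out of the 16300 in the expression table. The genes were taken by name: the ligand subunits *Inha*, *Inhba*, *Inhbb* and *Amh*, the ligand-binding antagonists *Fst* and *Fstl3*, and the receptors *Acvr1b*, *Acvr2a*, *Acvr2b* and *Amhr2*. RNA-seq was performed on 6 libraries of primary GCs from wild type C57BL/6J mice aged 8 to 9 weeks, 3 kept in media (control) and 3 given dihydrotestosterone (DHT), an androgen that is not aromatized to estrogen, at 25 nM for 24 h. The GCs of 5 mice were pooled for each library, collected at estrus by needle puncture, cultured in serum and then serum starved, so each replicate is a pool and not an animal. The labels name GCs as the cell type but describe extraction from whole ovary, and their free text names DHT for every sample, so the groups were taken from the treatment characteristic.

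Inhibins and activins are dimers built from a shared set of subunits. An alpha subunit (*Inha*) joined to a beta subunit (*Inhba* or *Inhbb*) makes inhibin, which restrains FSH release from the pituitary, whereas beta subunits joined to each other make activin, which promotes it and also acts within the follicle. Follistatin binds and neutralizes activin, activin signals through type II and type I receptor kinases to SMAD proteins, and anti-Müllerian hormone (AMH), made by the GCs of small growing follicles, acts through its own type II receptor to restrain follicle growth.

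Levels are normalized counts, that is, reads scaled by a size factor per library. Between 36111177 and 41928585 reads were recovered per library from the 16300 genes. Differences are log2 fold changes of DHT against control from limma on log2(value + 1), with Benjamini-Hochberg adjusted p-values over 16292 genes, those whose mean reached 10. Genes are referred to as called where the adjusted p did not exceed 0.05. Over all tested genes, 6.52% were called higher and 4.66% lower with DHT, and 1.31% also had an absolute log2 fold change above 1. The median log2 fold change of all tested genes was -0.0052.

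Markers of GCs were abundant, with a level summed over 7 genes of 107431 to 114688 in control and 105956 to 113539 in DHT libraries. *Gja1*, the gap junction protein connexin 43, made up most of that sum, at 67758 or more in every library. Of the 7 genes, *Esr2*, *Kitl* and, at the edge of the threshold (adjusted p = 0.0490), *Foxl2* were called lower with DHT and *Hsd17b1* higher, and the median log2 fold change was -0.05. Among them, *Foxl2* was at 2194 or more and *Esr2* at 4071 or more in every library, and *Fshr*, the FSH receptor, lay between 135 and 168, while *Cyp19a1* was not analysed here. Summed theca markers (4 genes, *Cyp17a1* and *Insl3* not analysed here) were at 2479 to 2834 in control and 2215 to 2355 in DHT libraries, lower in every DHT library, with none called. Nearly all of this sum was *Ptch1*, at 2411 to 2773 and 2172 to 2294 (log2 fold change -0.19, adjusted p = 0.064). Immune markers (5 genes) summed to 504 to 592 and 409 to 647, and 1 of them, *Csf1r*, was called lower. Endothelial markers (4 genes) summed to 224 to 275 and 197 to 277, and surface epithelium markers (6 genes) to 999.6 to 1454 and 905 to 1457, with none called in either list. The fibroblast and smooth muscle list (6 genes) summed to 6082 to 8370 in control and 9764 to 11488 in DHT libraries, without overlap, and most of that sum was *Acta2*. The contractile genes *Acta2* and *Myh11* were called higher, whereas the 4 fibroblast genes had log2 fold changes below 0 that did not pass the threshold (*Col1a1* -0.13, *Dcn* -1.05, *Lum* -0.24, *Pdgfra* -0.38), and the median of the list was -0.18. Oocyte markers are given beside *Amh*.

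All 10 genes passed the filter on low values, and 1 of them differed between the groups at the threshold. *Inha* was called lower with DHT, beside 4.66% of all tested genes, and 0 of the 10 were called higher, beside 6.52%. None of the 10 also had an absolute log2 fold change above 1, beside 1.31% of all tested genes. At an unadjusted p under 0.05 there were 3 of the 10 (*Inha*, *Fstl3* and *Amhr2*) and 4101 of the 16292 tested genes. The control and DHT values did not overlap for 5 of the 10 (*Inha*, *Fstl3*, *Acvr2a*, *Acvr2b* and *Amhr2*), beside 30.6% of all tested genes. The median log2 fold change of the 10 genes was -0.0040, close to that of all tested genes.

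Levels of different genes were compared per kb of exon, with exonic lengths from the GENCODE M21 annotation of GRCm38. *Inha*, the alpha subunit, was the most abundant of the 10 in control GCs, at 36733 ± 3496 normalized counts per kb (SD, n = 3), rank 16 of 16265 genes. *Inhba* followed at 6305 ± 914, then *Inhbb* at 2777 ± 796, *Fst* at 2150 ± 619 and *Amhr2* at 1140 ± 46.5 (SD, n = 3 each). The remaining control levels per kb were 333 ± 23.1 for *Fstl3*, 203 ± 5.26 for *Acvr1b*, 174 ± 8.80 for *Acvr2a*, 78.0 ± 36.6 for *Amh* and 68.2 ± 2.71 for *Acvr2b* (SD, n = 3 each). The order thus ran from the inhibin subunits and follistatin, through the AMH receptor, to the activin receptors and *Amh* itself. In this order, 2 pairs of neighbours overlapped between control libraries. *Inhbb* (2031 to 3616 per kb) overlapped *Fst* (1560 to 2795), and *Amh* (44.9 to 117) overlapped *Acvr2b* (65.1 to 70.3). With DHT the *Fst* mean, at 2701 ± 477 per kb, stood beside that of *Inhbb* at 2684 ± 692 (SD, n = 3), with ranges that again overlapped.

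**Figure D1:**
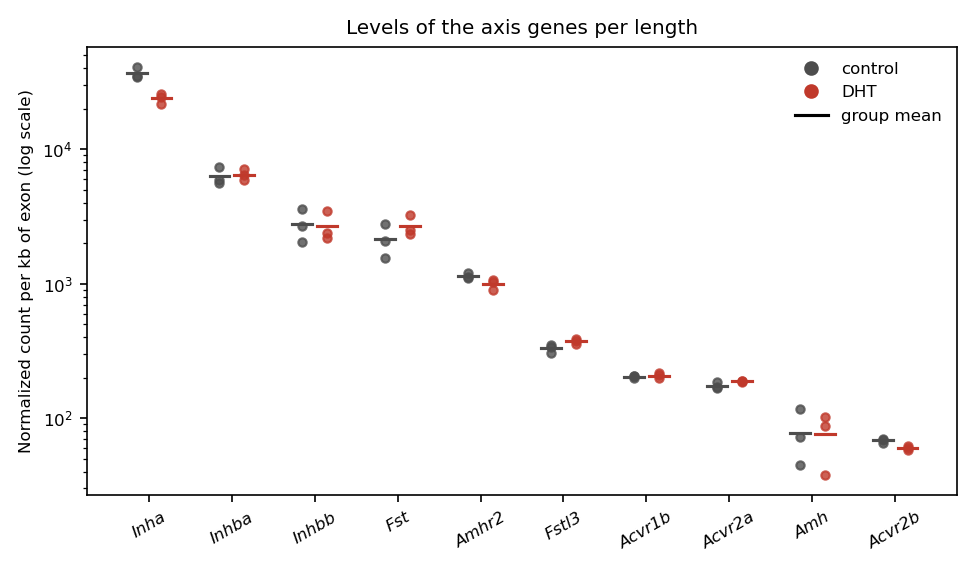
Normalized counts per kb of exon (y axis, log scale) for the 10 genes (x axis, ordered by control mean), with a point per library and a line at each group mean. *Inha* lies above the other 9 in every library, and its 3 DHT points (21879 to 25950) sit below its 3 control points (34322 to 40743).

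The *Inha* gene (ENSMUSG00000032968, chr1:75507077-75510366, plus strand, 2 exons) encodes the subunit that turns a beta subunit into inhibin. Its normalized counts were 60095, 51823 and 50626 in control replicates 1, 2 and 3, and 32271, 38277 and 35998 in DHT replicates 1, 2 and 3. Every DHT library was below every control library. The mean fell by 34.5%, from 54181 ± 5157 to 35515 ± 3032 (SD, n = 3). The log2 fold change was -0.61 ± 0.080 (SE), with a 95% interval of -0.79 to -0.43 and an adjusted p of 0.0016 (limma, Benjamini-Hochberg). *Inha* stayed called under each of the 14 alternatives run, with log2 fold changes between -0.68 and -0.53 and adjusted p-values between 0.0011 and 0.0345. In bulk libraries, fewer cells of a type and less RNA per cell cannot be told apart. Between the same groups, the GC markers *Esr2* and *Kitl* were called lower, as was *Foxl2*, whose call was lost under 8 of the 14 alternatives, and *Hsd17b1* was called higher, with *Gja1* at 0.06 on the log2 scale. In the fibroblast and smooth muscle list *Acta2* and *Myh11* were called higher, with the other 4 genes at -1.05 to -0.13 and not called. The theca sum, nearly all of it *Ptch1*, which was not called, was lower in every DHT library. The part of these in the difference of *Inha* was not tested.

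*Inhba* (ENSMUSG00000041324, chr13:16011851-16031621, plus strand, 5 merged exons) encodes the beta A subunit of activin A and inhibin A. It was measured at 36157, 37739 and 46969 normalized counts in control replicates 1 to 3 and at 45266, 40906 and 38102 in DHT replicates 1 to 3. The groups overlapped, with control replicate 3 the highest and control replicate 1 the lowest of the 6. The means were 40288 ± 5839 and 41425 ± 3610 (SD, n = 3), a log2 fold change of 0.05 ± 0.099 (SE) with a 95% interval of -0.18 to 0.27 (adjusted p = 0.82).

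*Inhbb* (ENSMUSG00000037035, chr1:119415465-119422248, minus strand, 2 exons) encodes the beta B subunit of activin B and inhibin B. Control replicates 1 to 3 held 8644, 11422 and 15386 normalized counts, and DHT replicates 1 to 3 held 14797, 10096 and 9374. Control libraries alone spread 1.78-fold and DHT libraries 1.58-fold, and the groups overlapped almost fully. The log2 fold change was -0.04 ± 0.21 (SE), with a 95% interval of -0.52 to 0.44 (adjusted p = 0.94). That interval, not adjusted for the number of genes, holds the differences compatible with these libraries and is not a detection limit.

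To set the 3 inhibin subunit genes side by side at the sequence level, the 250 bases before the start of each gene in the RefSeq promoter set (GRCm38.p6) are shown on the strand of the gene. The motifs searched on both strands were AGGTCA, a nuclear receptor half-site, and CGTCA, the half-site of the cAMP response element. Capitals mark a match, all other bases are in lower case, and no matches overlapped in these windows.
Inha, chr1:75507359-75507608, plus strand: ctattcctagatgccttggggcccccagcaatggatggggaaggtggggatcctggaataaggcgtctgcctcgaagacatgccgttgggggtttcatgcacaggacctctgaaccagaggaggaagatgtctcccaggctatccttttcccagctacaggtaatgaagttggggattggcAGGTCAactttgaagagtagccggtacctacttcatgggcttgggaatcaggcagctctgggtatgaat
Inhba, chr13:16011601-16011850, plus strand: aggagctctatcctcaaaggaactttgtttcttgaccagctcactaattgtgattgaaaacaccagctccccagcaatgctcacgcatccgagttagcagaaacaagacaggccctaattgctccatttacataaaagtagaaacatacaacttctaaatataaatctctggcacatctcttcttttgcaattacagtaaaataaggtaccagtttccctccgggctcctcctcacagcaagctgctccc
Inhbb, chr1:119422249-119422498, minus strand: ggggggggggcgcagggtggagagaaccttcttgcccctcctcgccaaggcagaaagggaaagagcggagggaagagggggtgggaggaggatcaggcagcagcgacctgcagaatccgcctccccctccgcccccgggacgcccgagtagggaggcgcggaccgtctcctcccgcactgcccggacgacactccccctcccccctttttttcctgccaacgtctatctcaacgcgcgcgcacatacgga
The *Inha* window held 1 match to AGGTCA, which begins 69 bases before the RefSeq start, and none to CGTCA, and the *Inhba* and *Inhbb* windows held no match. Of all 32851 windows of the same length in the set, 14.0% held AGGTCA and 17.8% CGTCA on either strand. The *Inhba* and *Inhbb* windows lie outside the gene models. The RefSeq start of *Inha* lies inside the GENCODE gene, so 160 bases of its window are coding sequence of exon 1 and 90 are intron, and the AGGTCA match is in the intron. The bases before the GENCODE start of *Inha* were not searched, so whether they hold either motif is not known. The matches and GC content of its window are therefore not comparable with those of the *Inhba* and *Inhbb* windows. GC content was 53.6% for *Inha*, 43.2% for *Inhba* and 68% for *Inhbb*. A match of letters is a description of the sequence and not a bound site, and 8 of the 10 genes had a sequence in the set. AGGTCA was also matched in the windows of *Fstl3* and *Amhr2*, which were not called, so 3 of these 8 genes held it.

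Because the subunits share one another as partners, their ratio within a library was compared, which does not depend on the size factor. The log2 ratio of *Inha* to *Inhba* counts was 0.73, 0.46 and 0.11 in control replicates 1 to 3 and -0.49, -0.096 and -0.082 in DHT replicates 1 to 3. The ratio was positive in every control library and negative in every DHT library. Its sign depends on exon length (1475 bases for *Inha*, 6390 for *Inhba*), for which these counts were not corrected. Per kb of exon, mean *Inha* was above mean *Inhba* in the DHT libraries as well (24078 against 6483). The mean difference was -0.65 on the log2 scale, with an exact permutation p of 0.1 (two-sided, n = 3 per group, 0.4 after adjustment over 4 ratios), and 0.1 is the smallest p that 3 against 3 allows. For *Inha* to *Inhbb* the mean log2 ratio was 2.23 ± 0.54 in control and 1.66 ± 0.47 in DHT libraries (SD, n = 3), with overlap (exact permutation p = 0.3, adjusted 0.4). *Inhba* to *Inhbb* gave 1.80 ± 0.24 and 1.88 ± 0.24 (SD, n = 3), which overlapped (exact permutation p = 0.9, adjusted 0.9).

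Per kb of exon, *Inha* exceeded the sum of both beta subunits 5.30, 4.09 and 3.13 times in control replicates 1 to 3, and 2.07, 2.96 and 2.99 times in DHT replicates 1 to 3. The alpha subunit transcript was therefore in excess of the beta subunit transcripts in all 6 libraries. The mean excess was 4.17 ± 1.09 in control and 2.67 ± 0.52 in DHT libraries (SD, n = 3), without overlap between the groups.

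*Amh* (ENSMUSG00000035262, chr10:80805243-80807648, plus strand, 5 exons) encodes anti-Müllerian hormone. Control replicates 1 to 3 held 196, 120 and 75.0 normalized counts and DHT replicates 1 to 3 held 145, 63.3 and 171. The libraries spread 2.61-fold within control and 2.70-fold within DHT, the widest spread of the 10 genes in both groups, and the groups overlapped. Its log2 fold change was -0.06 ± 0.41 (SE), with a 95% interval of -0.98 to 0.87 (adjusted p = 0.95). Differences in either direction within that wide interval remain compatible with these libraries.

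Oocyte markers, summed over 7 genes, were 785, 307 and 299 in control replicates 1 to 3 and 536, 39.3 and 556 in DHT replicates 1 to 3. The 6 libraries thus fell in the same order for *Amh* and for the oocyte markers, from control replicate 1 down to DHT replicate 2. *Gdf9*, an oocyte growth factor, was at 257, 121 and 87.1 in control and 182, 28.4 and 177 in DHT replicates 1 to 3, while *Zp3* and *Oosp1* were at 0 in DHT replicate 2. The part of oocyte carryover in the *Amh* values was not tested.

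**Figure D2:**
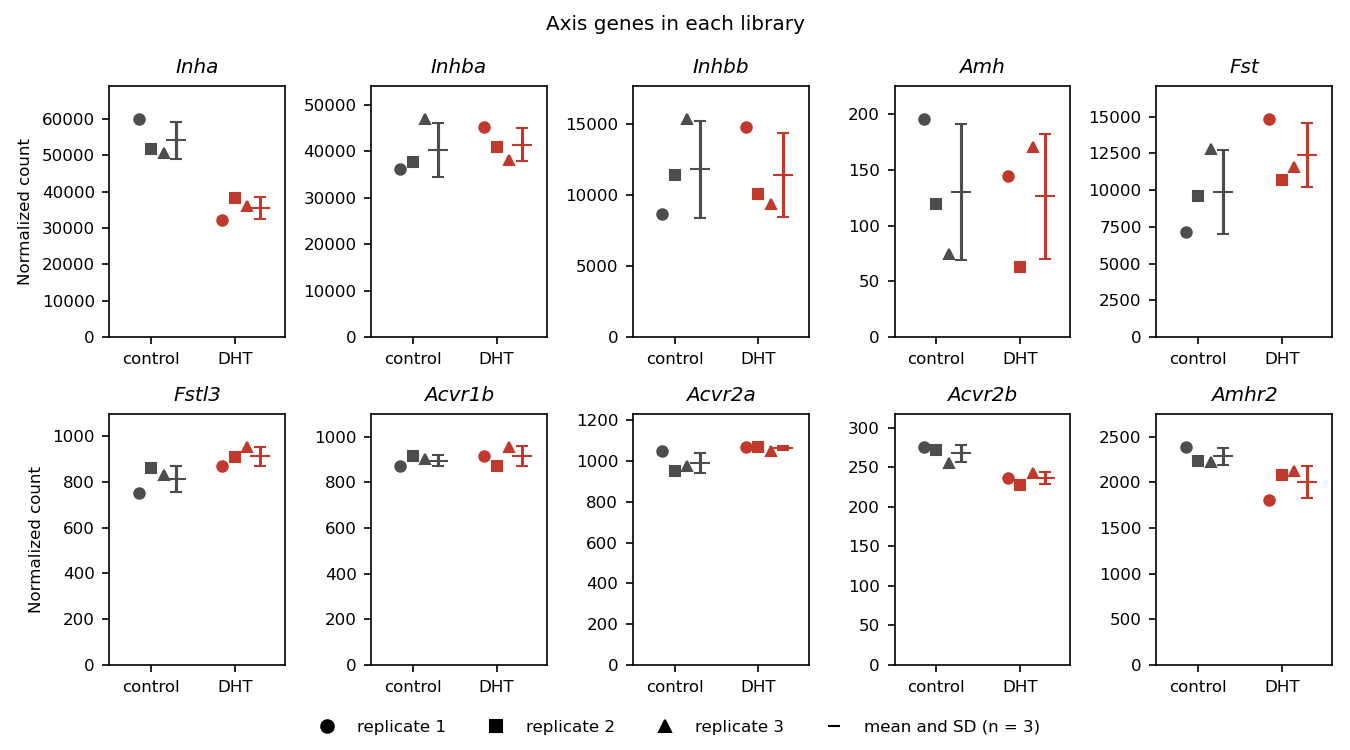
Normalized count (y axis, from 0) of each of the 10 genes in the 3 control (grey) and 3 DHT (red) libraries, with a marker per replicate number and the mean and SD of each group beside its points. The groups separate widely for *Inha*, while *Inhba*, *Inhbb*, *Amh*, *Fst* and *Acvr1b* overlap.

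*Fst* (ENSMUSG00000021765, chr13:114452290-114458951, minus strand) encodes follistatin, the main soluble antagonist of activin. Its normalized counts were 7159, 9612 and 12825 in control replicates 1 to 3 and 14864, 10701 and 11615 in DHT replicates 1 to 3. Control replicate 3 lay above DHT replicates 2 and 3, so the groups overlapped. The means were 9865 ± 2842 and 12394 ± 2188 (SD, n = 3), and the log2 fold change of 0.36 ± 0.19 (SE, 95% interval -0.075 to 0.79) did not pass the threshold (adjusted p = 0.29, limma). The call depended on 1 library. Without control replicate 3 the log2 fold change was 0.56 with an adjusted p of 0.0358, whereas without any of the other libraries *Fst* was not called, with log2 fold changes of 0.14 (without control replicate 1) or more. The log2 ratio of *Fst* to *Inhba* was -2.06 ± 0.24 in control and -1.75 ± 0.17 in DHT libraries (SD, n = 3), which overlapped (exact permutation p = 0.2, adjusted 0.4). Of its exonic bases, 115 overlap *Gm47040* on the other strand.

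Within each group, *Inhba*, *Inhbb* and *Fst* were highest in the same library, control replicate 3 among the controls and DHT replicate 1 among the DHT libraries. All 3 were also lowest of the controls in control replicate 1. *Inha* did not share this order, since control replicate 1 was its highest control library and DHT replicate 1 its lowest DHT library.

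**Figure D3:**
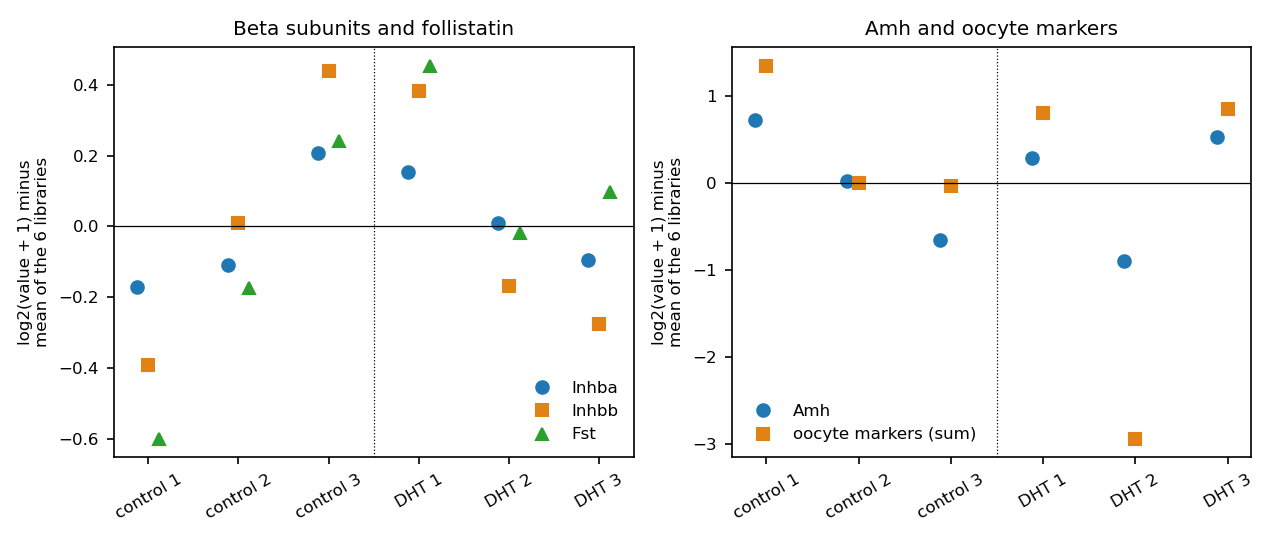
Values per library on the log2(value + 1) scale relative to the mean of the 6 libraries (y axis), for *Inhba*, *Inhbb* and *Fst* (left) and for *Amh* and the sum of 7 oocyte markers (right), with control replicates left of the dotted line and DHT replicates right of it. *Fst* runs from -0.60 in control replicate 1 to 0.45 in DHT replicate 1, and the oocyte sum from 1.35 in control replicate 1 to -2.94 in DHT replicate 2.

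*Fstl3* (ENSMUSG00000020325, chr10:79777272-79782630, plus strand) encodes a second follistatin-family protein that binds activin. Its normalized counts were 752, 861 and 830 in control replicates 1 to 3 and 872, 910 and 956 in DHT replicates 1 to 3. Every DHT value lay above every control value, although by as little as the gap from 861 to 872. The log2 fold change was 0.16 ± 0.066 (SE), and the 95% interval of 0.015 to 0.31, which is not adjusted for the number of genes, stayed above 0 while the adjusted p was 0.16. Without control replicate 1 its log2 fold change was 0.11 (adjusted p = 0.37). Of its 2445 exonic bases, 1157 overlap *Prss57* on the other strand. The strand setting of the counting is not given in the sources used here. Whether reads of that stretch were counted for *Fstl3*, for *Prss57* or for neither is therefore not known. The *Fstl3* level per kb, taken over all 2445 bases, carries the same limit.

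*Acvr1b* (ENSMUSG00000000532, chr15:101174067-101213684, plus strand) encodes the type I receptor kinase of activin. Control replicates 1 to 3 held 871, 916 and 901 normalized counts and DHT replicates 1 to 3 held 918, 873 and 958. The groups overlapped, and the log2 fold change of 0.03 ± 0.055 (SE) had a 95% interval of -0.093 to 0.16 (adjusted p = 0.78).

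The activin type II receptors were both without overlap, with small differences of opposite sign. *Acvr2a* (ENSMUSG00000052155, chr2:48814109-48903269, plus strand) was at 1048, 953 and 974 normalized counts in control and 1072, 1071 and 1051 in DHT replicates 1 to 3. *Acvr2b* (ENSMUSG00000061393, chr9:119402118-119434995, plus strand) was at 276, 271 and 256 in control and 237, 228 and 243 in DHT replicates 1 to 3. The *Acvr2a* means differed by a log2 fold change of 0.10 ± 0.052 (SE, adjusted p = 0.26), and those of *Acvr2b* by -0.18 ± 0.085 (SE, adjusted p = 0.22), neither past the threshold. Of the exonic bases of *Acvr2a*, 446 overlap *Orc4* on the other strand.

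*Amhr2* (ENSMUSG00000023047, chr15:102445367-102454633, plus strand) encodes the type II receptor that binds AMH. Control replicates 1 to 3 held 2393, 2240 and 2225 normalized counts, and DHT replicates 1 to 3 held 1805, 2078 and 2125. All DHT libraries were below all control libraries, with DHT replicate 1 the lowest. The mean was 2286 ± 93.3 in control and 2003 ± 173 in DHT libraries (SD, n = 3). The log2 fold change of -0.19 ± 0.065 (SE, unadjusted 95% interval -0.34 to -0.047) missed the threshold (adjusted p = 0.0955, and 0.0736 to 0.23 over the 14 alternatives). Without DHT replicate 1 its log2 fold change was -0.12.

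**Figure D4:**
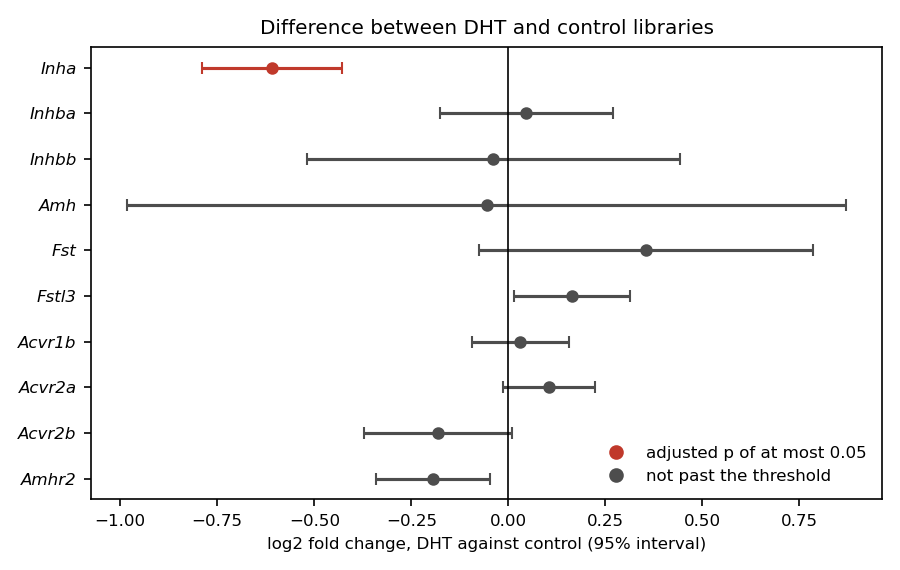
Log2 fold change of DHT against control (x axis) for each of the 10 genes (y axis), with bars for the 95% interval from limma, not adjusted for the number of genes, and red for an adjusted p of at most 0.05. *Inha* stands alone in red at -0.61, and *Amh* has the widest interval, from -0.98 to 0.87.

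The genes around the axis were taken from 6 lists with 54 genes, of which 46 were tested. Of these, 5 were called higher, beside 6.52% of all tested genes, and 8 lower, beside 4.66%. The median log2 fold change of the 46 was -0.05, and none had an absolute log2 fold change above 1 together with its call. Of the 13 called genes, *Tgfbr3*, *Smad6*, *Smad9*, *Fbn1*, *Fstl1* and *Esr2* stayed called whichever library was left out, and the other 7 did not. Of these 6, all but *Fstl1* also stayed called under every other alternative run. Where the gene with the highest normalized count of a list is named, its length was not taken into account.

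Among the co-receptors and type I receptors (10 tested, 2 higher, 0 lower, median log2 fold change -0.05), *Tgfbr3* rose. It encodes betaglycan, the co-receptor through which inhibin binds activin type II receptors. Its normalized counts were 437, 432 and 421 in control and 617, 711 and 717 in DHT replicates 1 to 3, with a wide gap between the groups. The log2 fold change was 0.66 ± 0.074 (SE, adjusted p = 0.00072). *Bmpr1b*, a type I receptor used by BMPs and AMH, rose from 4951 ± 324 to 5788 ± 80.3 (SD, n = 3), a log2 fold change of 0.23 (adjusted p = 0.0195), a call that was lost without DHT replicate 1, 2 or 3 (adjusted p up to 0.0798), without the intensity trend (0.10) and with the replicate block (0.058). *Bmpr2*, which encodes the BMP type II receptor despite the name of the list, had its highest normalized count, without correction for length, at 20984 ± 1532 and 18892 ± 861 (SD, n = 3, adjusted p = 0.15).

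In the list of SMADs and partners (11 tested, 2 higher, 3 lower, median log2 fold change -0.04), *Smad6*, *Smad9* and *Smad7* were called lower and *Ski* and *Skil* higher. *Smad6*, an inhibitory SMAD that blocks the BMP branch, was at 2207, 1997 and 2147 normalized counts in control and 1305, 1393 and 1337 in DHT replicates 1 to 3. All DHT values were far below the control values, with a log2 fold change of -0.65 ± 0.051 (SE, adjusted p = 0.00013). *Smad9*, a receptor-regulated SMAD of the BMP branch, fell from 682 ± 24.4 to 420 ± 39.5 (SD, n = 3), a log2 fold change of -0.70 (adjusted p = 0.00079). *Smad7*, an inhibitory SMAD of the activin and TGF-beta branch, fell by 0.25 on the log2 scale at the edge of the threshold (adjusted p = 0.0497), and the call held only without control replicate 2 among the leave-outs (adjusted p up to 0.18). It was also lost with a pseudocount of 0.5 (0.0502), without the intensity trend (0.17) and with the replicate block (0.14).

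The SMAD corepressors *Ski* and *Skil* rose, with log2 fold changes of 0.16 (adjusted p = 0.0242) and 0.48 (adjusted p = 0.0279). The *Ski* call was lost without control replicate 2, DHT replicate 2 or DHT replicate 3 (adjusted p up to 0.12), and the *Skil* call without any library other than control replicate 3 (adjusted p up to 0.0937). Without the intensity trend both calls were lost (0.096 for *Ski*, 0.14 for *Skil*), and with the replicate block that of *Ski* (0.10). *Smad2*, *Smad3* and *Smad4*, which carry the activin signal to the nucleus, were not called, with log2 fold changes of 0.0079, -0.13 and -0.05. *Smad4*, with the highest normalized count of the genes that were not called, was at 4709 ± 85.7 and 4553 ± 90.4 (SD, n = 3).

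Of the other extracellular binding proteins (9 tested, 1 higher, 2 lower, median log2 fold change -0.33), *Grem1*, a BMP antagonist, rose from 2052 ± 432 to 3255 ± 494 (SD, n = 3), a log2 fold change of 0.68 (adjusted p = 0.0227). This call was lost without DHT replicate 1 or DHT replicate 3 (adjusted p up to 0.0672), without the intensity trend (0.12) and with the replicate block (0.076). *Fbn1*, which encodes the microfibril protein fibrillin, fell from 2699 ± 23.3 to 2095 ± 133 (SD, n = 3), a log2 fold change of -0.37 (adjusted p = 0.0020). *Fstl1*, a secreted glycoprotein named for its follistatin-like domain, fell from 7181 ± 633 to 5709 ± 179 (SD, n = 3), a log2 fold change of -0.33 (adjusted p = 0.0087, and 0.0755 without the intensity trend). *Ltbp1*, with the highest normalized count of the list, was at 10739 ± 1751 and 10826 ± 838 (SD, n = 3, adjusted p = 0.93).

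The transcription factors and receptors that act on *Inha* and *Amh* (11 tested, 0 higher, 3 lower, median log2 fold change -0.095) included *Esr2*, the estrogen receptor beta of GCs. It was at 5719, 5229 and 5409 normalized counts in control and 4246, 4415 and 4071 in DHT replicates 1 to 3, without overlap. DHT and control differed for *Esr2* by a log2 fold change of -0.36 ± 0.046 (SE, adjusted p = 0.0015). *Gata4*, a zinc finger factor of the gonad, fell by 0.21 on the log2 scale (adjusted p = 0.0265) and *Foxl2*, a forkhead factor of GC identity, by 0.15 (adjusted p = 0.0490). The *Gata4* call was lost without control replicate 2 or any 1 DHT library (adjusted p up to 0.0967), and the *Foxl2* call without any library other than control replicate 3 (adjusted p up to 0.14). Both were also lost without the intensity trend (0.12 for *Gata4*, 0.13 for *Foxl2*) and with the replicate block (0.075 and 0.13), and *Foxl2* with TMM scaling (0.0504). *Nr5a2*, with the highest normalized count of the list, was at 14834 ± 1666 and 14289 ± 1344 (SD, n = 3, adjusted p = 0.76).

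The convertases that cleave the precursors of these ligands (4 tested) held no called gene, with a median log2 fold change of -0.02. *Furin*, with the highest mean normalized count of them, was at 5153 ± 182 and 5266 ± 99.1 (SD, n = 3, adjusted p = 0.67). In the list of other activin and nodal ligands, only *Gdf11*, a close relative of myostatin, was tested, at 1294 ± 40.4 and 1407 ± 14.1 (SD, n = 3). Its log2 fold change of 0.12 did not pass the threshold (adjusted p = 0.12).

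**Figure D5:**
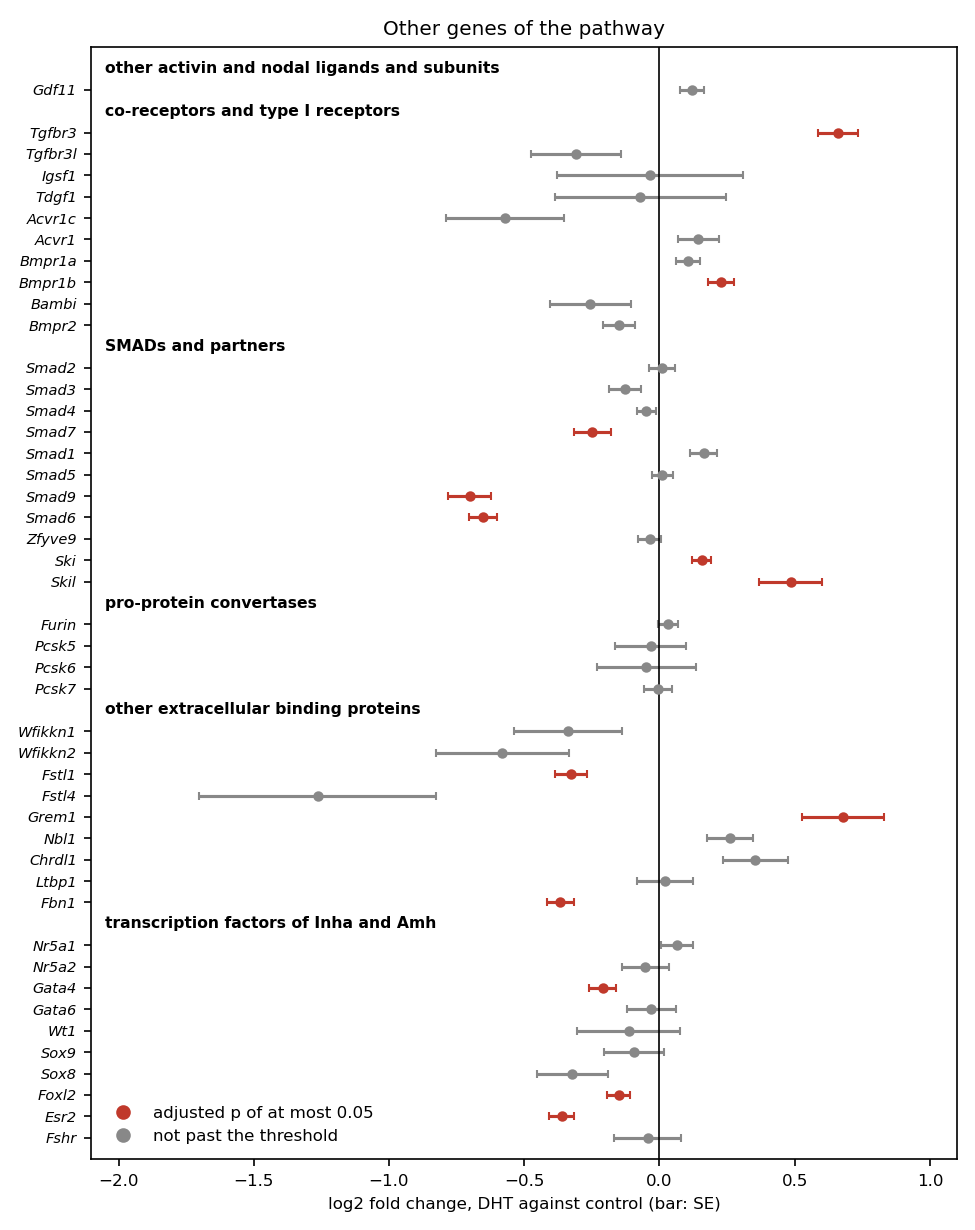
Log2 fold change of DHT against control (x axis) with its SE for 45 of the 46 tested pathway genes (y axis), grouped by list, red where the adjusted p was at most 0.05. *Tgfbr3* (0.66) and *Grem1* (0.68) stand farthest to the right, *Smad9* (-0.70) and *Smad6* (-0.65) farthest to the left of the called genes.

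The genes with profiles most like those of *Inha* and *Fst* over the 6 libraries were found by the Euclidean distance between centred log2(value + 1) values, among 12704 genes with a mean of at least 50. For *Inha* they were *Gcnt4* (distance 0.13), *Tmc8* (0.14) and *Abca9* (0.17), beside a median distance of 0.81. *Gcnt4* was at 537, 511 and 490 normalized counts in control and 314, 371 and 359 in DHT replicates 1 to 3, with DHT replicate 1 lowest as for *Inha*. For *Fst* they were *Tubb4a* (distance 0.16), *Hmga2* (0.21) and *Clip3* (0.21), beside a median distance of 0.85. *Tubb4a* was at 314, 411 and 489 in control and 606, 428 and 464 in DHT replicates 1 to 3, again with DHT replicate 1 highest and control replicate 1 lowest.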

How the data were processed

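RNA-seq was analysed for 6 GC libraries, 3 control and 3 DHT. Per the submitters' processing notes and the study's methods, the authors trimmed reads with Trimmomatic 0.36, mapped them to GRCm38 with STAR 2.5.2b and counted unique exonic reads with Subread 1.5.2. The signal deposited by the authors is a count divided by the DESeq2 size factor of its library. The deposited fold changes and p-values, and a second table of a subset of the genes, were not used. Reads per library were recovered from the step of the values, which were whole multiples of it for 100% of values within 1e-04 reads. They served as totals and as the input of the TMM scaling alternative.

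The model was limma 3.58.1 (R 4.3.3) on log2(value + 1), with an intensity trend and no block. This pseudocount understates the change of low genes. Same-numbered libraries deviated with correlations of 0.0058, 0.067 and -0.24, so the numbers were not taken to pair them. With 3 libraries per group, exact permutation tests (scipy 1.17.1) cannot go below 0.1. The test was checked on simulated data. The 10 genes, the lists and the tests were chosen with earlier results of these data known. Named were the 10 genes, the called pathway genes and the other gene of each list with the highest normalized count, and the 3 genes nearest to *Inha* and *Fst*. *Smad2*, *Smad3* and the markers were named outside that rule, and 1 gene of the lists is not reported here.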

Additional observations from a re-analysis of the deposited data

How the results depend on the processing

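*Inha* stayed called, lower with DHT, under each of the 14 alternatives run: pseudocounts of 0.5 and 8, no filter, a mean of at least 50, TMM scaling, quantile normalization, no intensity trend, the replicate block and each library left out. The edgeR and DESeq2 alternatives were not run. The number of the 10 genes called was 1, and 1 to 2 with a library left out, the second being *Fst* without control replicate 3. The pathway count of 13 became 5 without the intensity trend, and 6 to 14 with a library left out, lowest without DHT replicate 3 (6) and DHT replicate 2 (7). The count over all tested genes, 1823, became 804 without the trend and 937 to 2103 with a library left out, lowest without DHT replicate 3 (937) and DHT replicate 2 (968). With the replicate block, which the numbers did not bear out as a pairing, 1 of the 10 genes, 7 pathway genes and 990 genes in all were called. The cause of these differences was not tested.

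Log2 fold changes near 0 changed sign. *Inhba* was at -0.0016 with quantile normalization and from -0.027 to 0.16 with a library left out, *Inhbb* from -0.24 to 0.17, *Amh* from -0.40 to 0.38 and *Acvr1b* from -0.0015 to 0.065, none past the threshold. The log2 ratio of *Inhba* to *Inhbb* ranged from -0.0095 to 0.22 with a library left out. The other 3 ratios kept their direction under each alternative run, but *Inha* to *Inhbb* moved from -0.57 to -0.29 without control replicate 1 and -0.30 without DHT replicate 1, and *Fst* to *Inhba* from 0.31 to 0.17 without control replicate 1. *Amh*, at 63.3 to 196 normalized counts per library, rested on the fewest reads of the 10 genes and had the widest interval.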

Other observations

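*Pcsk5*, a convertase of the pathway lists that was singled out after its values were seen, was at 3801, 4146 and 5466 normalized counts in control replicates 1 to 3 and at 4957, 4198 and 3867 in DHT replicates 1 to 3. Its highest and lowest library in each group were those of *Inhba* and *Inhbb*. Its groups overlapped, with a log2 fold change of -0.03 ± 0.13 (SE, adjusted p = 0.91, limma with Benjamini-Hochberg). *Hsd17b1*, an enzyme of estrogen synthesis in the GC marker list, rose from between 5460 and 6888 to between 8453 and 9079 (log2 fold change 0.48, adjusted p = 0.0044). *Kitl*, the GC ligand of the oocyte receptor Kit, fell from between 8659 and 12229 to between 5603 and 5952 (log2 fold change -0.85, adjusted p = 0.0012).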
